A study of Mus musculus with 24 samples.

Results

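The genes described here are snoRNA host genes, the growth arrest-specific gene Gas5 and members of the Snhg family. They were chosen by name: of 7 symbols on the list (Gas5, Snhg1, Snhg3, Snhg5, Snhg6, Snhg8 and Snhg12), 6 were found among 13534 genes of the whole-cell count table and among 11568 genes of the table of cell fractions. Snhg8 was not analysed here. RNA was sequenced from NIH3T3 cells, an established line of mouse fibroblasts, that had been transfected with either a miR-29b mimic or a scrambled one. Each carried 3-cyanovinylcarbazole, which crosslinks to the opposite strand under light, so both arms share transfection and crosslinker. Per the labels the mimics were used at 10 nM, medium was added at 24 h and harvest followed 8 h later. Each mimic gave an input and a pulldown, with 4 whole-cell libraries in each of the 4 groups and 1 nuclear and 1 cytoplasmic library of each kind.

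A snoRNA host gene is transcribed as a longer RNA whose introns carry small nucleolar RNAs. Box C/D snoRNAs guide ribose methylation of ribosomal RNA and box H/ACA snoRNAs guide pseudouridylation. The spliced exons of many hosts code for no protein, and several host RNAs, Gas5 among them, are known to be degraded by nonsense-mediated decay when they are translated. Many host genes also begin transcription at a pyrimidine-rich start, as ribosomal protein genes do. MiR-29b is a microRNA known for its collagen and other matrix targets, and a microRNA usually pairs with its targets through its seed, bases 2 to 8.

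The mature mouse sequence (RefSeq, GRCm38.p6) is given because it is the bait of the pulldown. Capitals mark the seed.

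mmu-miR-29b-3p: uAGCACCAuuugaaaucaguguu

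The complement of that seed, read 5′ to 3′, is uggugcu. Its DNA form, TGGTGCT, did not occur in any of the RefSeq promoter sequences of the members that have one, which does not bear on the spliced RNA. The transcript sequence of Snhg6 was not used here, so no pairing with Snhg6 RNA is shown. Start windows were read from RefSeq promoters for Gas5 (2 starts), Snhg1, Snhg3, Snhg5 and Snhg12. They are shown because several members are known for pyrimidine-rich starts. Each runs from 20 bases before to 20 bases after the annotated start, and capitals mark CTTT, searched on the transcribed strand only. These 3 windows held it. It begins at the annotated start in the second Gas5 window, spans that start in Snhg12 and lies after it in Snhg5. Where transcription starts was not measured here.

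Gas5, second start: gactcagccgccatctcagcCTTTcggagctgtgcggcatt
Snhg5: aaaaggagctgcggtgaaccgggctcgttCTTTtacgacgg
Snhg12: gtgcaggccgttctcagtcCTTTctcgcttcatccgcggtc

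They lie at chr1:161035146-161035186 (plus strand), chr9:88522877-88522917 (minus strand) and chr4:132308658-132308698 (plus strand) in GRCm38.p6. The letters were not found in the windows of Snhg1, Snhg3 or the first Gas5 start. Among 32851 such windows of all genes, 16.2% held CTTT, so its presence here is a description only.

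In GRCm38.p6, Gas5 (ENSMUSG00000053332) lies on chromosome 1 from 161034601 to 161038539 with 8 snoRNAs in its span, and Snhg1 (ENSMUSG00000097188) on chromosome 19 from 8723487 to 8726326, also with 8. Snhg5 (ENSMUSG00000097195) spans 88521052 to 88522897 on chromosome 9 and holds 2 snoRNAs. Both Snhg3 (ENSMUSG00000085241; 132351933 to 132353686, holding Snora73a and Snora73b) and Snhg12 (ENSMUSG00000086290; 132308678 to 132311024, with 4 snoRNAs) are on chromosome 4. Snhg6 (ENSMUSG00000098234), host of Snord87, is on chromosome 1 from 9942025 to 9944118. Its span overlaps Mcmdc2, and that of Gas5 overlaps Zbtb37. Whether counting used strand is not given in the sources used here, and reads from overlapping genes cannot be told apart. Counts are per gene, with no exon lengths, and levels are therefore not compared between genes.

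Whole-cell libraries held 7409157 to 55153996 listed counts and fraction libraries 5320421 to 20142591. The labels do not state that the replicates were separate cultures, and the p-values therefore cover only the spread among these libraries, which may be technical. The authors' column names speak of a lysed and an intact set without naming replicates. Their lysed mean equals the mean of replicates 1 to 3 in 13534 of 13534 genes (within a relative difference of 1e-05), so replicate 4 is taken here as the intact one, by inference. Replicate 4 stood apart in both inputs and in the miR-29b pulldown but not in the scrambled pulldown. Replicate 3 of the miR-29b pulldown had an intermediate value in 98.7% of 3041 genes with a difference of 1.5-fold or more between replicates 1 and 2, against 82.5% to 86.1% in the other groups. Calls are therefore also given for replicates 1 to 3 and for replicates 1, 2 and 4. All 9 fibroblast markers were measured, with a sum of 4892 to 7844 CPM (counts scaled to library size after TMM) in the inputs. Of other cell types, 1 of 3 leukocyte, 0 of 3 endothelial, 1 of 4 epithelial and 2 of 3 muscle markers passed the filter on low counts, each list summing to at most 4.07 CPM in any input. Fewer cells of a kind and less RNA per cell cannot be told apart in such bulk libraries.

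Of the 6 hosts, Snhg6 was the one recovered more with miR-29b than with the scrambled mimic over the whole-cell libraries. Its level in the miR-29b pulldown was 199, 371, 274 and 365 CPM in replicates 1 to 4. The scrambled pulldown held 25.5, 21.1, 20.7 and 19.9 CPM. All 4 miR-29b pulldown libraries lay far above the scrambled ones, with no overlap. In the miR-29b inputs Snhg6 stood at 40.7, 35.2, 39.05 and 118 CPM, and in the scrambled inputs at 47.5, 40.4, 43.3 and 50.6 CPM. The miR-29b input of replicate 4 was thus higher than the other 7 inputs, yet lower than any miR-29b pulldown library. The group means were 302 ± 82.1 CPM (SD, n = 4) and 21.8 ± 2.52 CPM in the miR-29b and scrambled pulldowns, and 58.2 ± 39.9 CPM and 45.5 ± 4.50 CPM in the inputs.

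**Figure D1:**
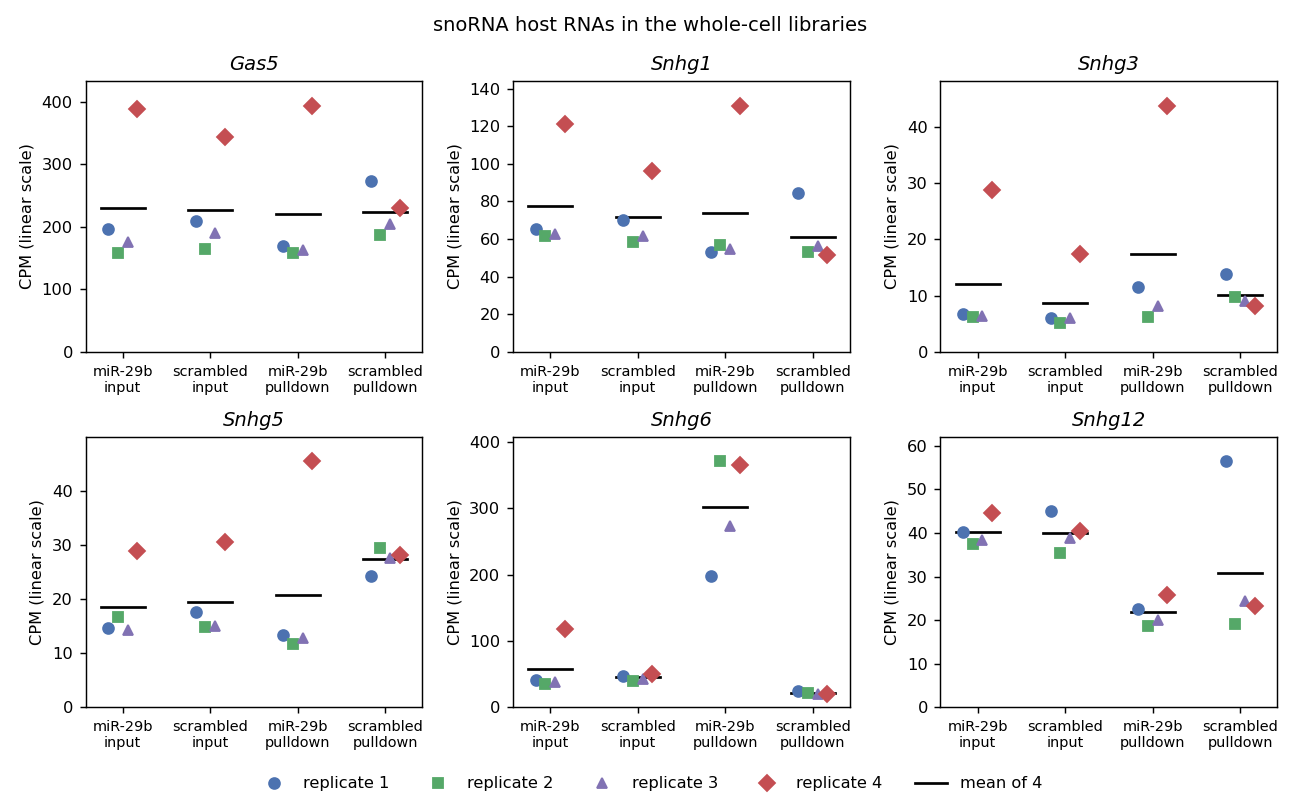
Level of each host RNA in CPM on a linear axis from 0, in 4 groups of 4 whole-cell libraries; symbols mark the replicate number and bars the mean of 4. Snhg6 reaches 199 to 371 CPM in the miR-29b pulldown, and replicate 4 is the highest library of the inputs and the miR-29b pulldown for Gas5, Snhg1, Snhg3 and Snhg5.

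The design allows a ratio of ratios, pulldown over input with miR-29b relative to pulldown over input with the scrambled mimic, called mimic-specific enrichment here. Snhg6 was 10.8-fold more enriched with miR-29b (log2 change 3.44 ± 0.47 SE, 95% interval 2.43 to 4.44, n = 4 per group, edgeR quasi-likelihood adjusted p = 8.23e-05). It was the 69th highest of 12915 genes tested. Among 506 genes that the file types as lincRNA, processed transcript or antisense it was the second highest. The other 5 hosts did not pass. Of all genes tested, 26.2% passed in either direction at an adjusted p under 0.05 (17% higher and 9.21% lower), so 1 of 6 is no larger a share than the background. The median log2 change was 0.06 over the 6 hosts, −0.03 without Snhg6 and −0.10 over all genes tested. Of the 506 genes of those 3 types, 34 (6.72%) were higher. Leaving out the miR-29b input of replicate 4 gave Snhg6 a log2 change of 4.12, over 1.5 times the fold of all libraries. It passed in all 25 alternatives run, at 3.14 to 4.12 on the log2 scale (adjusted p = 1.81e-10 to 0.00747).

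Snhg6 parted from its input in opposite directions with the 2 mimics. With miR-29b it was 5.18-fold higher in the pulldown than in its input (log2 change 2.37 ± 0.34 SE, edgeR adjusted p = 3.36e-05). With the scrambled mimic it was 2.09-fold lower (log2 change −1.06 ± 0.33 SE, edgeR adjusted p = 0.0197), and every scrambled pulldown library lay below every scrambled input library. The second call is the weaker one. It ended without replicate 3 or replicate 4 of the scrambled pulldown (edgeR adjusted p = 0.0502 and 0.0535) and with replicates 1, 2 and 4 alone (edgeR adjusted p = 0.116, range over 26 alternatives 0.000258 to 0.116). Between the pulldowns directly, Snhg6 was 13.9-fold higher with miR-29b (log2 change 3.80 ± 0.36 SE, edgeR adjusted p = 6.65e-07). The inputs differed by 0.36 ± 0.32 on the log2 scale, which did not pass (edgeR adjusted p = 1.00).

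The authors' deposited table gives a per-gene score named PE in its headers, whose formula was not recovered from the values. In the authors' deposited table Snhg6 has a PE of 10.2, 18.7, 13.0 and 18.4 in replicates 1 to 4, and a mean of 14.0 over the lysed replicates that ranks 192 of 13534 genes. The authors' deposited table marks it significant in the lysed set (5.05% of genes carry that mark) and in the intact one (7.23%), as a positive hit (4.19%), and without a TargetScan site. Of the other hosts, the authors' deposited table marks only Snhg3, in the intact set, where its PE was 4.09 against 0.21 to 0.68 in replicates 1 to 3. These marks come from the same libraries and are no independent measurement.

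The box C/D hosts Gas5, Snhg1 and Snhg5 did not pass against the scrambled control over all 4 replicates in the model without a replicate block. With that block Snhg5 passed between the pulldowns (log2 change −0.65, edgeR adjusted p = 0.0378, range over 26 alternatives 2.61e-06 to 0.909). Gas5 stood at 169, 158, 163 and 394 CPM in the miR-29b pulldown and at 273, 187, 204 and 229.8 CPM in the scrambled pulldown. Its miR-29b inputs held 196, 158, 176 and 389 CPM and its scrambled inputs 209.7, 165, 190.1 and 344 CPM. In the miR-29b pulldown replicates 1 to 3 lay below every scrambled pulldown library and replicate 4 above them all, and replicate 4 was also the highest library of both inputs. The mimic-specific log2 change of Gas5 was −0.03 ± 0.49 SE (95% interval −1.07 to 1.01, edgeR adjusted p = 0.97), an interval that still holds a change of 2-fold either way. Between the pulldowns it was −0.02 ± 0.35 SE (edgeR adjusted p = 0.974) over all libraries and −0.44 with replicates 1 to 3 alone (edgeR adjusted p = 0.0246, range over 26 alternatives 0.0246 to 0.997).

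Snhg1, which hosts as many snoRNAs as Gas5, stood at 53.1, 56.9, 54.9 and 131 CPM in the miR-29b pulldown and at 84.5, 53.2, 56.3 and 51.3 CPM in the scrambled pulldown. The inputs held 65.3, 61.8, 62.9 and 121 CPM with miR-29b and 70.0, 58.4, 61.8 and 96.1 CPM with the scrambled mimic. Replicate 4 was the highest library of both inputs and of the miR-29b pulldown and the lowest of the scrambled pulldown, and replicates 1 to 3 of the pulldowns overlapped. The mimic-specific log2 change was 0.15 ± 0.44 SE (edgeR adjusted p = 0.838).

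Snhg5 depended on replicate 4. Its miR-29b pulldown held 13.3, 11.8, 12.7 and 45.4 CPM against 24.3, 29.4, 27.5 and 28.2 CPM in the scrambled pulldown. Replicates 1 to 3 lay below every scrambled library and replicate 4 above them all. The inputs held 14.7, 16.6, 14.2 and 28.8 CPM with miR-29b and 17.5, 14.9, 15.0 and 30.6 CPM with the scrambled mimic. Over all libraries the mimic-specific log2 change was −0.32 ± 0.56 SE (edgeR adjusted p = 0.717). Without replicate 4 of the miR-29b pulldown it was −1.04 (edgeR adjusted p = 0.0463), and with replicates 1 to 3 alone −1.03 (edgeR adjusted p = 0.000156, range over 25 alternatives 0.000156 to 0.998).

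**Figure D2:**
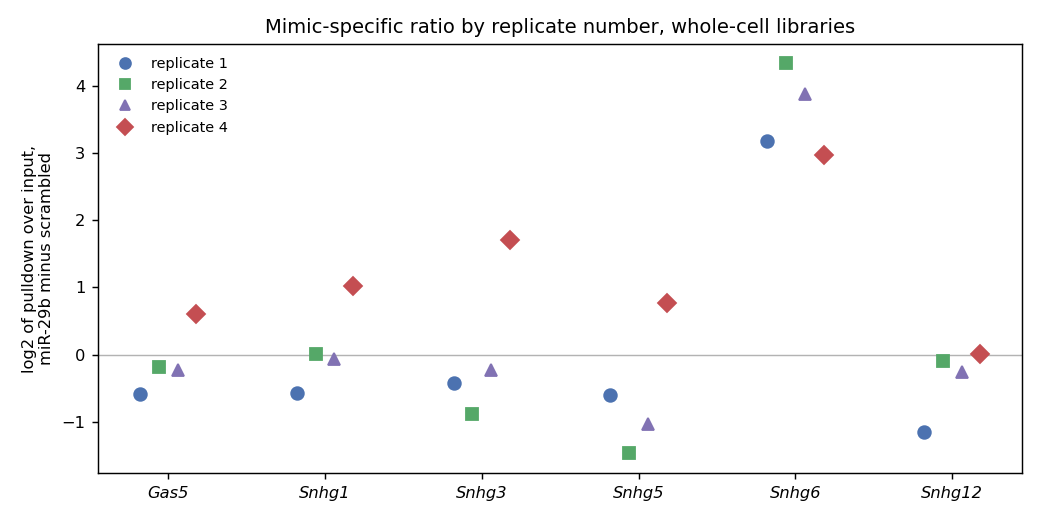
Log2 of pulldown over input with miR-29b minus the same with the scrambled mimic, one point per replicate number and host, whole-cell libraries. Snhg6 lies at 2.97 to 4.33, while for Gas5, Snhg3 and Snhg5 replicates 1 to 3 lie below 0 and replicate 4 above it.

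The H/ACA host Snhg3 was the least precisely measured. It stood at 11.6, 6.15, 8.22 and 43.8 CPM in the miR-29b pulldown and at 13.8, 9.70, 9.08 and 8.08 CPM in the scrambled pulldown. Its inputs held 6.70, 6.13, 6.41 and 28.7 CPM with miR-29b and 5.96, 5.20, 6.07 and 17.3 CPM with the scrambled mimic. Replicate 4 lay well above the other 3 in both inputs and in the miR-29b pulldown, and below them in the scrambled pulldown. The mimic-specific log2 change was 0.32 ± 0.90 SE (95% interval −1.59 to 2.22, edgeR adjusted p = 0.835). By replicate number the ratio was −0.41, −0.89, −0.22 and 1.70 on the log2 scale. In replicate 4 pulldown over input was 0.61 with miR-29b and −1.09 with the scrambled mimic. The labels do not say that the numbers pair libraries, so these ratios are a description only.

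Snhg12, whose introns hold both box classes, was lower in the pulldown than in its input with miR-29b. The miR-29b pulldown held 22.7, 18.8, 19.98 and 25.8 CPM against 40.2, 37.4, 38.3 and 44.5 CPM in its input, with no overlap between the groups. This was a fall of 1.84-fold (log2 change −0.88 ± 0.26 SE, edgeR adjusted p = 0.0101), in a comparison in which 51.6% of all genes passed, 28.4% higher and 23.2% lower. The call ended with replicates 1, 2 and 4 alone (edgeR adjusted p = 0.071, range over 26 alternatives 0.000118 to 0.071). In the scrambled pulldown Snhg12 stood at 56.5, 19.1, 24.4 and 23.2 CPM against inputs of 45.0, 35.4, 38.9 and 40.3 CPM. Replicate 1 was above its inputs there and the other 3 below theirs. The log2 change was −0.39 ± 0.26 SE over all libraries (edgeR adjusted p = 0.259). It was −0.88 when replicate 1 of the scrambled pulldown was left out (edgeR adjusted p = 0.000461, range over 26 alternatives 0.000461 to 0.597). The mimic-specific log2 change of Snhg12 was −0.49 ± 0.37 SE (edgeR adjusted p = 0.359), so a difference between mimics was not shown.

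**Figure D3:**
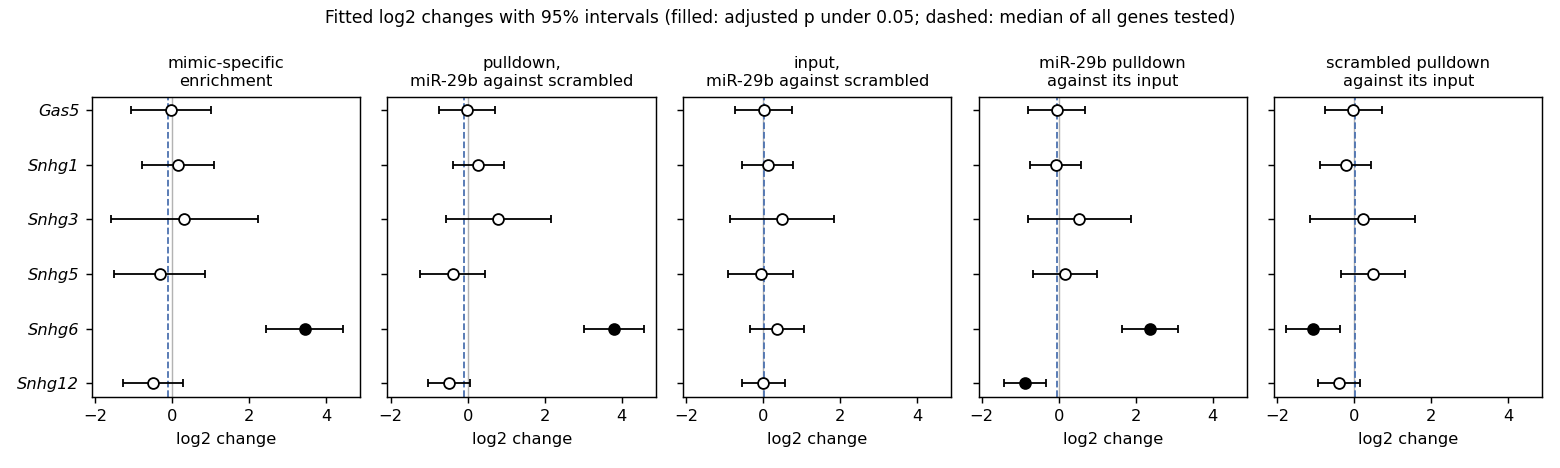
Fitted log2 change of the 6 hosts in 5 comparisons with 95% intervals; filled points have an edgeR adjusted p under 0.05 and the dashed line is the median of all genes tested. Snhg6 is the one host past the threshold in the mimic-specific comparison and between pulldowns, and Snhg6 and Snhg12 pass in the miR-29b pulldown against its input.

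The counts in the remaining comparisons were as follows. Between the pulldowns 1 of 6 passed, upward, with 45.4% of all genes passing (24.5% higher and 20.9% lower). In the scrambled pulldown against its input 1 of 6 passed, downward, with 35.9% of all genes passing (18.5% higher and 17.4% lower). None passed between the inputs, where 7 of 12915 genes did (0.0542%); at an unadjusted p under 0.05 the count among the 6 hosts was also 0 with edgeR, and DESeq2 called 0 of them as well. The miR-29b and scrambled contrasts share no library, whereas the mimic-specific and pulldown contrasts share all 8 pulldown libraries. With replicates 1 to 3 alone, 2 hosts passed in the mimic-specific comparison, Snhg6 and Snhg5, and 3 between the pulldowns, with Gas5 at −0.44 as the third. On those replicates, of 12834 genes tested, 3127 were higher and 2457 lower in the mimic-specific comparison. Between the pulldowns 3780 were higher and 3784 lower.

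Replicate 4 exceeded the mean of replicates 1 to 3 by 1.14, 0.93, 2.15, 0.93 and 1.62 on the log2 scale for Gas5, Snhg1, Snhg3, Snhg5 and Snhg6 in the miR-29b inputs, against a median of −0.02 over all genes. Snhg12 differed by 0.20. Of all genes, 15.5% were above 1 and 14.2% below −1 there. In the scrambled inputs the same differences were 0.88, 0.60, 1.59, 0.95 and 0.21, with 0.03 for Snhg12, and 7.54% of genes were above 1 and 10.9% below −1. In the scrambled pulldown all 6 lay between −0.40 and 0.07. Replicate 4 of the miR-29b input was made from 6 ng of RNA and all other libraries from 5 ng, per the labels. The part of handling or RNA amount in these levels was not tested, and with 1 such library per group the replicate and its handling cannot be told apart.

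In the fractions, 5 of 6 hosts passed 2-fold in the cytoplasmic mimic-specific ratio, where 19.3% of 11568 genes did so upward. Each group was 1 library, so this is a description with no replicate check. Gas5 had 1183 CPM in the cytoplasmic miR-29b pulldown (9900 counts) against 304 CPM in its input, and 352 CPM in the scrambled pulldown (1366 counts) against 274 CPM in its input. Both the level and the ratio were thus higher with miR-29b, at a mimic-specific log2 ratio of 1.60. Snhg1 stood at 363 CPM over an input of 90.4 CPM with miR-29b, and at 112 CPM over 89.9 CPM with the scrambled mimic, a ratio of 1.68. Snhg5 held 96.5 CPM over 20.2 CPM, against 33.3 CPM over 20.7 CPM, a ratio of 1.56.

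Snhg3 held 57.7 CPM over 11.7 CPM with miR-29b and 17.3 CPM (67 counts) over 9.05 CPM with the scrambled mimic, a mimic-specific log2 ratio of 1.36. Snhg6 again had the highest value of the family, 3.43, from 292 CPM over 34.3 CPM and 33.0 CPM over 42.2 CPM. That is a 10.7-fold difference and ranked 31 of 11568 genes. Snhg12 was the one host short of 2-fold, at 0.61. The median over the 6 hosts was 1.58 and over all genes 0.04. With miR-29b alone all 6 hosts were past 2-fold over their cytoplasmic input (13.7% of genes were higher and 9.41% lower), at 1.02 to 3.07 on the log2 scale, and with the scrambled mimic none was (10.4% of genes were higher and 10.8% lower). Scaled by total listed counts, 5 of 6 passed with miR-29b, where the all-gene median was −0.41 in place of −0.02. The share of all genes past 2-fold on that scale is not given here.

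In the nucleus no host passed 2-fold in the mimic-specific ratio, where 1.83% of genes were higher and 2.31% lower. The log2 ratios were −0.29 for Gas5, −0.34 for Snhg1, −0.21 for Snhg3, −0.29 for Snhg5, 0.27 for Snhg6 and −0.16 for Snhg12. Snhg6 held 43.5 CPM in the nuclear miR-29b pulldown over 29.4 CPM in its input, and 40.5 CPM over 33.2 CPM with the scrambled mimic. None of the 6 was past 2-fold over nuclear input with miR-29b (2.35% of genes were higher and 0.96% lower) or with the scrambled mimic (2.96% and 0.588%). The authors' deposited table gives Snhg6 a cytoplasmic PE of 10.2, rank 39 of 11568 genes, with a mark that 2.04% of genes carry, and a nuclear PE of 0.26. For the other 5 hosts the authors' deposited table has cytoplasmic PE values of 0.57 to 3.50 and no such mark.

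**Figure D4:**
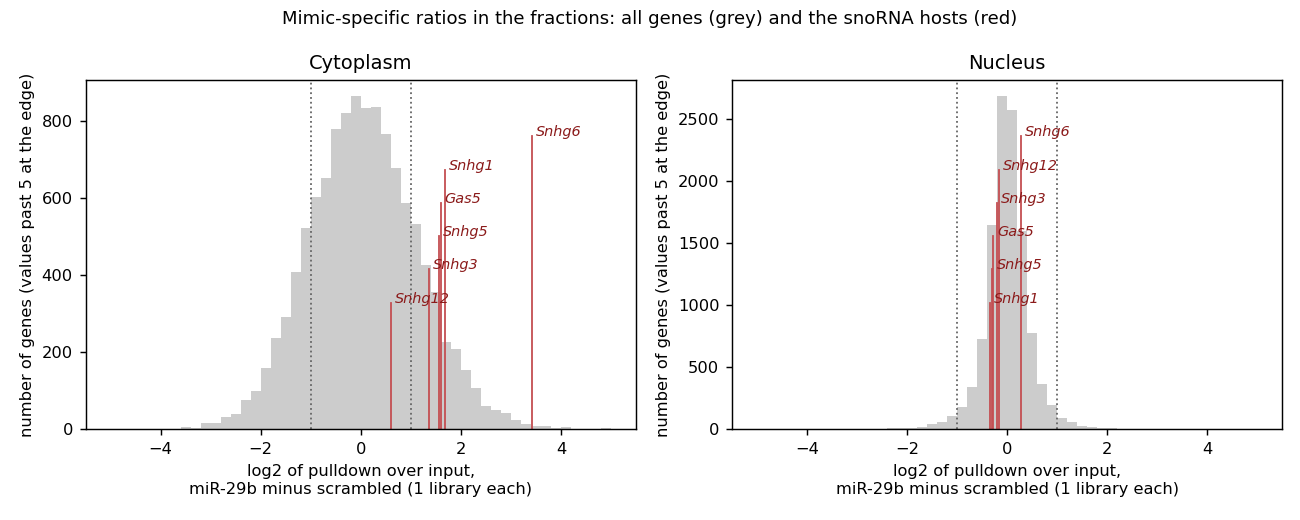
Histograms of the mimic-specific log2 ratio over 11568 genes (grey, number of genes) in the cytoplasm and the nucleus, 1 library per group, with the 6 hosts as red lines and 2-fold as dotted lines. In the cytoplasm 5 hosts lie past 2-fold, and in the nucleus all 6 lie between −0.34 and 0.27.

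The cytoplasmic values of Gas5, Snhg1, Snhg3 and Snhg5 stand beside whole-cell ratios of replicate 4 of 0.60, 1.02, 1.70 and 0.77 on the log2 scale, and beside ratios of −0.59 to 0.02 for Gas5 and Snhg1 and −1.47 to −0.22 for Snhg3 and Snhg5 in replicates 1 to 3. The sources used here do not give whether the fractions came from cells handled as one or the other set. These whole-cell ratios take same-numbered libraries together, though the labels do not say that the numbers pair. In replicate 4, pulldown over input for Gas5, Snhg1, Snhg3 and Snhg5 was 0.02, 0.11, 0.61 and 0.65 with miR-29b. With the scrambled mimic it was −0.58, −0.90, −1.09 and −0.12. The hosts also differed in where they lay. Snhg3 and Snhg5 were past 2-fold toward the nucleus in both inputs, at 1.87 and 1.46 with miR-29b and 2.29 and 1.48 with the scrambled mimic, where 25.1% and 23.8% of genes were. Gas5, at 0.19 and 0.53, and Snhg1, at 0.09 and 0.13, were near the median of all genes (0.01 in both). Snhg6 was at −0.22 and −0.34 and Snhg12 at −0.52 and −0.44. These signs and the 2-fold mark depend on the scaling: total listed counts shift every gene by about the same amount, to all-gene medians of 0.70 and 0.56. On that scale Snhg6 is at 0.49 and 0.22, Snhg12 at 0.18 and 0.12, and Gas5 at 0.91 and 1.0995, past 2-fold in the scrambled input, while Snhg3 and Snhg5 stay past 2-fold in both.

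The snoRNAs inside these hosts were mostly not listed. Snora73b, carried by Snhg3, stood at 43.9, 6.41, 10.4 and 16.2 CPM in the scrambled pulldown and at 0.191, 0.0456, 0.155 and 1.11 CPM in its input. It was higher by 5.58 ± 1.33 SE on the log2 scale (edgeR adjusted p = 0.00408), while its host was at 0.22 ± 0.64 SE. In the miR-29b pulldown against its input Snora73b was also higher, by 2.41 ± 1.12 SE, which did not pass (edgeR adjusted p = 0.0826). Replicate 4 of that input held 222 counts, against 2 to 4 in replicates 1 to 3. Most inputs of Snora73b rest on few counts, down to 1, so the size of these changes is loosely set. Of 14 snoRNA and scaRNA genes tested, 9 were higher and 0 lower in the scrambled pulldown against its input, with 18.5% of all genes higher. In the miR-29b pulldown against its input 0 of 14 passed, with a median of 1.52, and in the mimic-specific comparison 0 of 14 passed, with a median of −2.07.

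Genes beside the hosts were read from their own counts in the mimic-specific comparison. Trnau1ap, 739 bases from Snhg12, fell (log2 change −1.32, edgeR adjusted p = 0.00089), and Phactr4, 2236 bases from Snhg3, rose (log2 change 1.76, edgeR adjusted p = 0.00462). Slc3a2, 118 bases from Snhg1, was at −0.10 ± 0.24 SE. Zbtb37, which overlaps Gas5, was higher than input in both pulldowns (log2 change 2.02 and 1.67, edgeR adjusted p = 0.000411 and 0.0036) and held at most 21.6 CPM in any library.

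Other genes of snoRNA production and decay are set against the share of all genes that passed in the mimic-specific comparison, 17% higher and 9.21% lower. Of 5 genes tested from a list of other noncoding hosts, 0 passed in the mimic-specific comparison, and their median was −0.64. The 5 include Mir17hg (log2 change −1.96), a host of microRNAs and not of snoRNAs, so that median is not of snoRNA hosts alone. In the cytoplasm 3 of 3 genes measured from the list were past 2-fold upward, with a median of 1.49. There 19.3% of all genes were higher and 16.5% lower. Of 23 protein-coding hosts outside ribosomal proteins 3 rose and 3 fell, with Rabggtb, a prenyltransferase subunit, at 1.23 and Chd4, a chromatin remodeller, at −0.96. In the cytoplasm 3 of these 23 were past 2-fold upward and 3 downward. Of 22 ribosomal protein hosts 1 rose, Rpl23a at 1.63, and 2 fell, among them Rpl3 at −0.69. Against input, the miR-29b pulldown had 16 of these 22 lower and 0 higher (23.2% of all genes were lower; median −1.01), and the scrambled pulldown had 11 of 22 lower and 0 higher (17.4% of all genes were lower; median −0.55).

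Of 19 snoRNP proteins and assembly factors 1 rose, the helicase Ruvbl2 at 1.35, and 3 fell, among them the methyltransferase Fbl at −1.18. Of 18 factors of nonsense-mediated decay 1 rose, the exon junction protein Rbm8a at 2.37 ± 0.31 SE (edgeR adjusted p = 4.71e-05), and 3 fell, among them Casc3, its partner in that complex, at −1.13, and Smg5 at −1.12. Of 18 genes known as substrates of that decay 3 rose, the splicing factors Tra2b, Srsf7 and Srsf3 at 1.92, 2.06 and 1.19, and 3 fell. Smg5 is on both of these decay lists and is counted among the genes that fell in each. Beside the same 17% higher and 9.21% lower over all genes, these are counts of 1 to 3 genes a list, and a difference from that share was not tested. The medians of these lists lay between −0.39 and −0.22, against −0.10 over all genes.

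By the mean absolute difference of centred log2 CPM over the 16 whole-cell libraries, the gene most like Gas5 was Nme1 (0.13, median over 12879 genes 0.61), a nucleoside diphosphate kinase, and the second was Snhg1 (0.14). Lsm7, Rpl36 and Ankrd37 followed at 0.15 each. Snhg5 ranked 123, Snhg3 ranked 1353, Snhg12 ranked 3003 and Snhg6 ranked 12061 in likeness to Gas5. The genes most like Snhg6 were Arv1, Chic2, Banf1, Rpia and Pigc (0.17 to 0.20, median over all genes 1.34), whose mimic-specific log2 changes were 2.77 to 3.90. They were picked by likeness over the same libraries, so a change near that of Snhg6 follows from the choice. The measure follows library differences as well as the groups, replicate 4 among them.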

How the data were processed

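Per the submitters' processing notes, reads were handled with STAR 2.3.0 and the mm10 build. The sources used here give no counting tool, annotation version or strand setting; genes are GENCODE's, per the file headers. Raw whole-number counts were deposited by gene. The authors' CPM values, also deposited, were used only to take their library totals, of which the listed counts were 48.9% to 87.3% in whole cells. The authors' deposited score, PE, was copied as given. Repeat lines with identical counts (518 of 14052) were dropped, and 11 of 11579 in the fractions.

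The test was that of edgeR 4.0.16 under R 4.3.3 (filterByExpr, TMM, quasi-likelihood test, 1 model over 16 libraries, 12915 genes tested and 619 filtered), two-sided, with Benjamini-Hochberg adjustment over all genes within each of 5 comparisons. Intervals of 95% use the model's t distribution. For the fractions, TMM-scaled ratios had a prior count of 5 and covered 11568 genes (20 counts or more in sum). Same-numbered libraries correlated over 0.1 in every pair between inputs (0.506 to 0.717) and between miR-29b input and pulldown (0.379 to 0.70). For reading the replicate block they were taken as paired there. Replicate 2 of the miR-29b input, however, correlated best with replicate 3 of the miR-29b pulldown. The correlations are of deviations from group means, which the shift of replicate 4 also enters. The main model used no pairing, and the block was an alternative only. Not every pair passed the cutoff where the scrambled pulldown took part (−0.0962 to 0.365). In simulated counts over 12787 genes, 87.5% of 4-fold changes were recovered for the mimic-specific comparison. False calls were 3.85% of calls there and 8.26% between the inputs, the highest of the 5 comparisons. The simulation gave every gene the same spread, changed only well-counted genes and held no shift of replicate 4. It therefore does not give the recovery to expect for hosts with a wide spread, such as Snhg3.

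The members, lists and tests were chosen with earlier results of these data known. Genes named outside the members are, by rule, up to 3 per list with the smallest p, the 5 nearest in likeness, and neighbours in GRCm38.p6. Some genes that the rule names are left out of the text. Alternatives were DESeq2 1.42.0, RLE or upper-quartile factors, other filters, the authors' totals, the replicate block, only the groups compared, and leaving out libraries; replicates 1, 2 and 4 alone were added after seeing the data.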

Additional observations from a re-analysis of the deposited data

Results flagged for a closer look

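In 24 groups of 4 whole-cell libraries (6 hosts in 4 groups), 13 had a highest or lowest library whose gap to the nearest other was larger than Dixon's 95% limit allows. Chance gives such a gap in about 1 in 20 groups, and the hosts share their libraries. In 11 of the 13 the library was replicate 4. In the miR-29b inputs these were Gas5 at 389 CPM, Snhg1 at 121 CPM, Snhg3 at 28.7 CPM, Snhg5 at 28.8 CPM and Snhg6 at 118 CPM. In the scrambled inputs they were Snhg3 at 17.3 CPM and Snhg5 at 30.6 CPM. In the miR-29b pulldown they were Gas5 at 394 CPM, Snhg1 at 131 CPM, Snhg3 at 43.8 CPM and Snhg5 at 45.4 CPM. Replicate 1 of the scrambled pulldown, the shallowest library, accounted for the other 2, Snhg1 at 84.5 CPM and Snhg12 at 56.5 CPM. The pulldown over input ratio of Snhg6 differed between the mimics by 3.44 on the log2 scale in the test of that difference (edgeR adjusted p = 8.23e-05).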

How the results depend on the processing

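Snhg6 kept its direction and its call in the mimic-specific comparison, between the pulldowns and in the miR-29b pulldown against its input under all alternatives run. The count of hosts called changed by over 1.5 times as follows. In the mimic-specific comparison it went from 1 to 2 with replicates 1 to 3, where 3127 of 12834 genes were higher and 2457 lower. Between the pulldowns the count of hosts went from 1 to 2 with the replicate block (Snhg5 at −0.65) or upper-quartile factors (Snhg12 at −0.81). It went to 3 with replicates 1 to 3. Over all genes the block gave 3416 higher and 3651 lower of 12915, and upper-quartile factors 2462 and 4333. Replicates 1 to 3 gave 3780 and 3784 of 12834. For the miR-29b pulldown against its input the count of hosts went from 2 to 1 with replicates 1, 2 and 4, where 2720 of 12908 genes were higher and 1808 lower. In the scrambled pulldown against its input the count of hosts went from 1 to 2 with the authors' totals (Snhg12 at −0.54). It went to 3 with replicates 1 to 3 (Snhg3 at 0.89 and Snhg5 at 0.79 beside Snhg6) and to 0 with replicates 1, 2 and 4. Over all genes the authors' totals gave 1939 higher and 1946 lower of 12868. Replicates 1 to 3 gave 3552 and 3386 of 12834, and replicates 1, 2 and 4 gave 1096 and 994 of 12908. Leaving out single libraries gave 1 to 2 hosts in the mimic-specific comparison and between the pulldowns. Both reached 2 without the miR-29b pulldown of replicate 4, where 2330 and 3279 of 13031 genes were higher and 1449 and 2829 lower. The miR-29b pulldown against its input had 2 to 3. The third, Snhg3 at 1.49, came without the miR-29b input of replicate 4, where 3947 of 13051 genes were higher and 3272 lower. The scrambled pulldown against its input had 0 to 2. It had 2 without its pulldown replicate 1 (2349 of 12988 genes higher, 2522 lower). It had 0 without pulldown replicate 3 (1939 of 13036 higher, 1799 lower) or 4 (1980 of 13021 higher, 1764 lower). The cause was not tested. The block ended no call and changed no call in the 2 comparisons whose libraries were taken as paired. In the mimic-specific comparison the all-gene median went from −0.10 to −0.39 with upper-quartile factors, with 1662 genes higher and 2400 lower, and to 0.21 with the authors' totals, with 2466 and 283.

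A further 26 log2 changes that had not passed changed sign and still did not pass. In the mimic-specific comparison these were Gas5 at 0.34 with the authors' totals and 0.0136 with replicates 1, 2 and 4, Snhg1 at −0.13 with upper-quartile factors and −0.21 with replicates 1 to 3, and Snhg3 at −0.100 with the replicate block and −0.44 with replicates 1 to 3. Between the pulldowns Gas5 was at 0.35 with the authors' totals and 0.0701 with replicates 1, 2 and 4, Snhg1 at −0.0220 with upper-quartile factors, and with replicates 1 to 3 Snhg1 was at −0.23 and Snhg3 at −0.30. Between the inputs Gas5 was at −0.0189 with the replicate block and Snhg12 at −0.00566 with RLE factors and −0.00565 with DESeq2, while replicates 1 to 3 gave Gas5 −0.11, Snhg1 −0.0172, Snhg6 −0.21 and Snhg12 −0.0574. In the miR-29b pulldown against its input the authors' totals gave Gas5 0.29 and Snhg1 0.27, and Snhg5 was at −0.0671 with upper-quartile factors and −0.23 with replicates 1 to 3. In the scrambled pulldown against its input Gas5 was at 0.0129 with upper-quartile factors, 0.0599 with the replicate block and 0.25 with replicates 1 to 3, and Snhg1 at 0.0373 with replicates 1 to 3.

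Leaving out single libraries also turned some of these signs. In the mimic-specific comparison Gas5 then ran from −0.47 to 0.43, Snhg1 from −0.27 to 0.53, Snhg3 from −0.69 to 1.34, Snhg5 from −1.04 to 0.0628 and Snhg12 from −0.66 to 0.0150. Between the pulldowns Gas5 ran from −0.45 to 0.13, Snhg1 from −0.15 to 0.51, Snhg3 from −0.21 to 1.08 and Snhg12 from −0.65 to 0.00795. Between the inputs Gas5 ran from −0.41 to 0.31, Snhg1 from −0.22 to 0.32, Snhg3 from −0.49 to 1.105, Snhg5 from −0.41 to 0.26, Snhg6 from −0.28 to 0.54 and Snhg12 from −0.0813 to 0.0368. In the miR-29b pulldown against its input Gas5 ran from −0.49 to 0.36, Snhg1 from −0.50 to 0.27, Snhg3 from −0.48 to 1.49 and Snhg5 from −0.56 to 0.51. In the scrambled pulldown against its input Gas5 ran from −0.20 to 0.25 and Snhg3 from −0.0206 to 0.80. The fractions have 1 library per group and no replicate check, and Snhg3 had 67 counts in the cytoplasmic scrambled pulldown.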
